A study of Mus musculus with 8 samples.

Results

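The genes described here are 34 general markers of myeloid cells and phagocytes, measured in the liver of Pemt−/− mice and Pemt+/+ mice during the first weeks of a high fat-high sucrose (HFHS) diet. They were chosen by name, as pan-leukocyte, Fc receptor, NADPH oxidase and phagocyte genes, with markers particular to Kupffer cells or to lipid-associated macrophages left out. The choice was made with earlier results of these data known. A total of 33 of the 34 genes, out of 18193 genes named on the array, were paired with at least 1 probe set of their own, and they held 59 of its 45037 probe sets. Lyn, a Src family kinase of leukocytes, was not analysed here. The Pemt−/− group consisted of 4 liver arrays, 1 each after 1, 2, 3 and 4 weeks of the HFHS diet. The Pemt+/+ group consisted of 4 liver arrays from the same weeks of the same diet. The study worked with male mice in which Pemt, the enzyme that methylates phosphatidylethanolamine to phosphatidylcholine, was deleted in the whole animal and not in hepatocytes alone. The sources used here give neither the age of these mice nor whether an array held the RNA of 1 mouse or of several, although the methods name as many mice of each genotype as there were arrays.

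Monocytes, macrophages and neutrophils descend from myeloid progenitors under the transcription factor PU.1, the product of Spi1, and take up particles, dead cells and antibody-coated material. Their Fc receptors signal through small adaptors that carry an immunoreceptor tyrosine-based activation motif (ITAM), and an NADPH oxidase assembled at the phagosome produces superoxide. The liver holds the resident macrophages called Kupffer cells, and monocytes from the blood enter it when it is injured.

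PU.1 binds purine-rich sites whose core was searched here as GAGGAA on both strands, from 250 bases before to 50 bases after each start site of the RefSeq table of assembly GRCm38.p6. Of the 33 genes measured, 23 had such a window and 12 of these held the letters, which is 52.2%, against 31.3% of 27025 genes. Over windows, 14 of 29 held them, which is 48.3%, against 28.3% of 32851 windows. A match of 6 letters is a description of the window and not a binding site. The 100 bases before a start site, in which the letters lay for the 6 genes below, are printed 5′ to 3′ on the strand of the gene, with GAGGAA or its reverse complement TTCCTC in capitals. Among the 23 genes with a window, these are the ones in which the whole letters lay in those 100 bases. They code for Fc receptor chains, a receptor of fungal sugars, leukocyte membrane proteins and a macrophage marker, whose levels are given later.
Fcgr1, chr3:96293970-96294069, minus strand: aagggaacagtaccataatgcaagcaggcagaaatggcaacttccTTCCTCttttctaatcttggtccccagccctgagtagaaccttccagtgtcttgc
Fcgr3, chr1:171059395-171059494, minus strand: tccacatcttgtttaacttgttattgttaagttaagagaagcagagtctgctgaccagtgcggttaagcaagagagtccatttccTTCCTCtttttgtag
Clec7a, chr6:129472780-129472879, minus strand: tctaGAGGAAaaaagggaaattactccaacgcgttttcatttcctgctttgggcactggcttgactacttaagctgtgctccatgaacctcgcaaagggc
Cd53, chr3:106790150-106790249, minus strand: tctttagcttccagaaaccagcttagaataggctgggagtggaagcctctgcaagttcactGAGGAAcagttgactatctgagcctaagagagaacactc
Laptm5, chr4:130913216-130913315, plus strand: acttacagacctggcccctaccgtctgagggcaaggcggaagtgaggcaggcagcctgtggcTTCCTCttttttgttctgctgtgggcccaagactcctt
Aif1, chr17:35176053-35176152, minus strand: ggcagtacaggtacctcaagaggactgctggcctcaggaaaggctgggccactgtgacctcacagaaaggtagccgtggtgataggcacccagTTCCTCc

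The arrays carried the labelled genotypes. The Pemt probe set measured 224 ± 26.4 in Pemt−/− and 5543 ± 437 in Pemt+/+ (mean intensity ± SD, n = 4 each), 23.2-fold lower in Pemt−/− (adjusted p = 5e-07, limma). The upper quartile of intensity was 384 to 425 on the Pemt−/− arrays and 363 to 370 on the Pemt+/+ arrays, and the 3′ to 5′ ratio of the Actb control probe sets was 2.06 to 2.67 in Pemt−/− and 2.29 to 2.44 in Pemt+/+. All 12 hepatocyte markers, albumin among them, were measured, and all 12 were lower in Pemt−/−, with a median log2 difference of −0.52 and a summed intensity of 301958 to 368263 in Pemt−/− against 418785 to 458454 in Pemt+/+. In a whole liver, more phagocytes and more RNA per phagocyte cannot be told apart.

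The first question was whether the phagocyte genes differed between the genotypes over the 4 weeks. Intensities were fitted as log2(intensity + 16), and each gene was represented by its brightest probe set. A total of 31 of the 33 genes were higher in Pemt−/− at an adjusted p under 0.05 (limma, week as a factor), 0 were lower, and Tlr7 and Spi1 did not pass. Among all 12949 genes tested, 12.6% were higher and 7.51% lower by the same rule. Because the 33 genes were chosen with earlier results of these data known, setting their count beside these shares is a description and not an independent test. The median log2 difference of the 33 genes was 1.58, with quartiles of 1.24 and 1.99, and that of all genes was 0.02. In 30 of the 33 genes every Pemt−/− array lay above every Pemt+/+ array, which held for 15.2% of all genes, and the exceptions were Tlr7, Spi1 and Fcgr3. Of the 4372 probe sets called over the whole array, 63.8% were higher in Pemt−/−. When each array was centred on the median of the probe sets kept, the median over all probe sets was −0.14 in place of 0.02, 37.6% of 5257 called probe sets were higher, and 29 of the 33 phagocyte genes were higher.

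**Figure D1:**
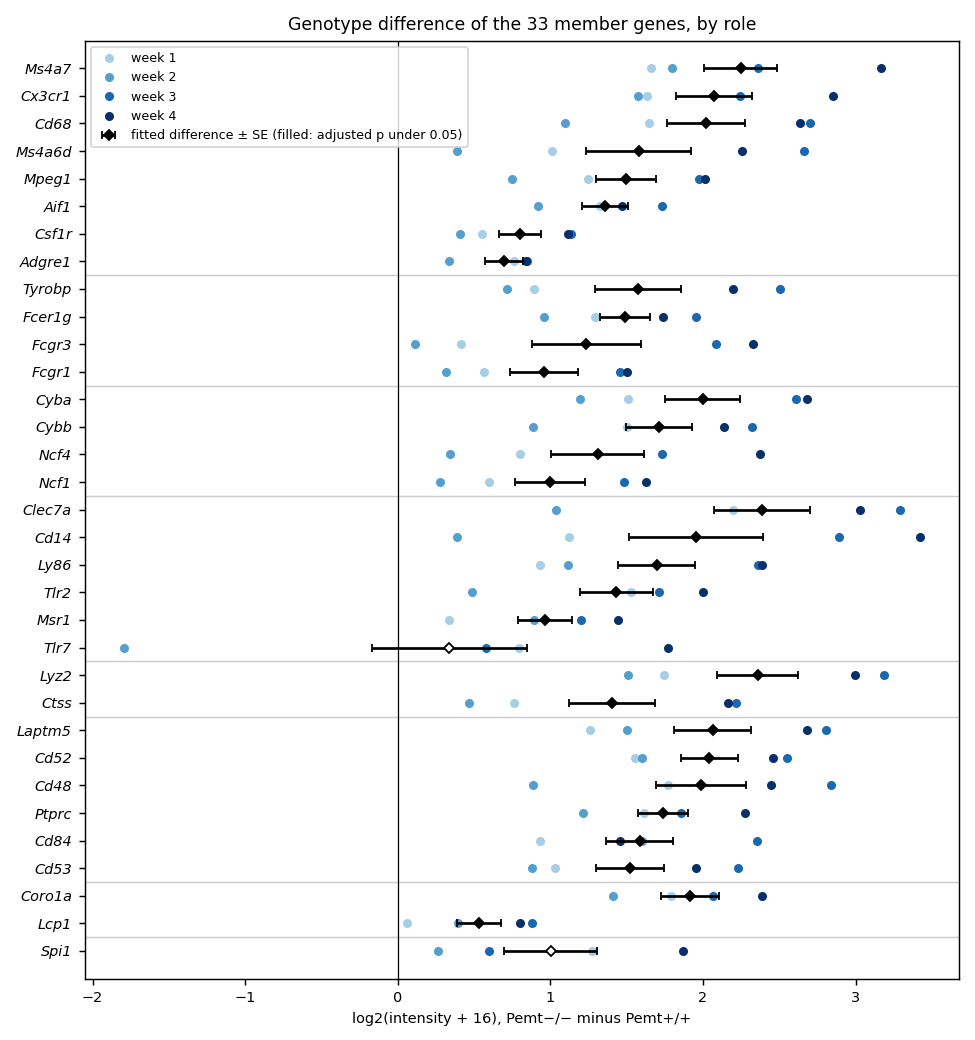
Log2 difference of Pemt−/− minus Pemt+/+ for the 33 genes, grouped by role. Each circle is 1 week (1 array of each genotype), darker for later weeks, and the diamond with bars is the fitted difference ± SE over the 4 weeks, filled where the adjusted p was under 0.05. The fitted differences run from 0.34 for Tlr7 to 2.39 for Clec7a, and only the open diamonds of Tlr7 and Spi1 did not pass.

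Values of an array are given below as deposited intensity, in the order of weeks 1, 2, 3 and 4, and intensities of different genes are not compared. All 8 macrophage surface genes were higher in Pemt−/−, with a median log2 difference of 1.54. Ms4a7, a tetraspan protein of macrophages, measured 387, 425, 865 and 1056 in Pemt−/−, against 111, 111, 155 and 103 in Pemt+/+. The genotypes did not overlap and the later Pemt−/− arrays were the highest, a 4.75-fold difference (log2 difference 2.25 ± 0.24 SE, adjusted p = 0.0012). Cx3cr1, the fractalkine receptor of monocytes, measured 175, 143, 400.3 and 485 in Pemt−/−, against 45.7, 37.3, 72.1 and 53.5 in Pemt+/+. Each Pemt−/− array stood clear of all Pemt+/+ arrays, at 4.21-fold (2.07 ± 0.25, adjusted p = 0.0016). Cd68, a lysosomal glycoprotein of macrophages, measured 775, 775, 1478 and 1461 in Pemt−/−, against 236, 354, 213 and 221 in Pemt+/+. Its Pemt−/− arrays formed an earlier and a later pair, and the fold was 4.06 (2.02 ± 0.26, adjusted p = 0.00198).

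Aif1, the calcium-binding protein IBA1 of macrophages, measured 922, 790.3, 751 and 933 in Pemt−/−, against 358, 409.7, 215 and 327 in Pemt+/+. It was higher in every week at 2.57-fold (1.36 ± 0.15, adjusted p = 0.00129), and its Pemt−/− arrays lacked the step between the earlier and the later pair. Mpeg1, the pore-forming perforin-2, was 2.82-fold higher in Pemt−/− and Ms4a6d, a relative of Ms4a7, 2.99-fold. The adjusted p of Ms4a6d was 0.0662 without week 3 and 0.0687 without week 4. The smallest folds of the group were those of Csf1r, the receptor of the macrophage growth factor CSF1, at 1.75-fold (adjusted p = 0.00629), and of Adgre1, which codes for the F4/80 antigen, at 1.62-fold (adjusted p = 0.0077). Adgre1 measured 1337, 916, 1121 and 1139 in Pemt−/−, against 782, 722, 616 and 628 in Pemt+/+, and it was the only gene of the 33 whose highest Pemt−/− array was that of week 1.

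**Figure D2:**
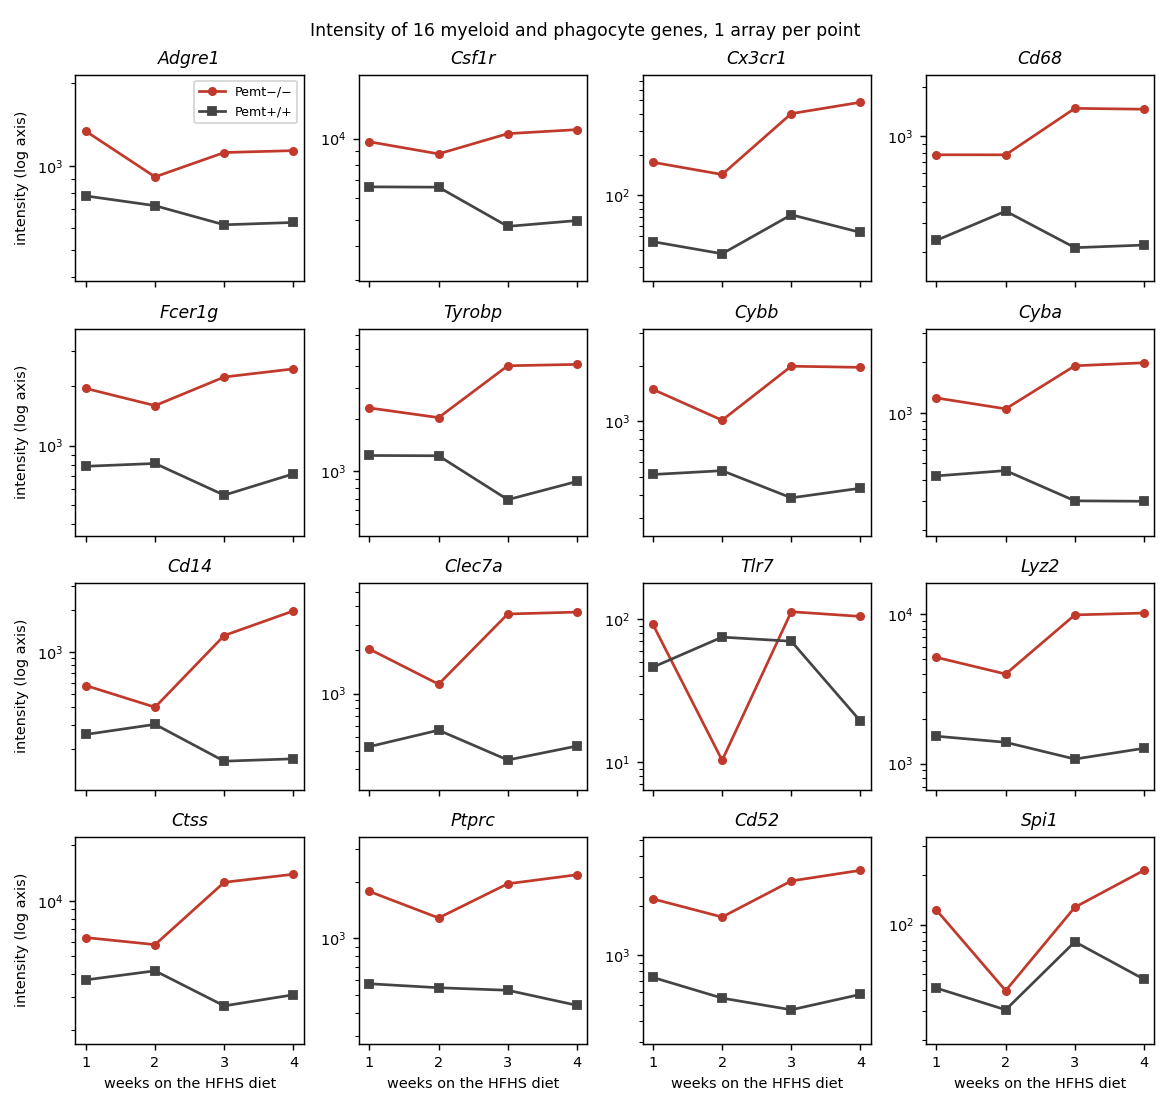
Deposited intensity (log axis, its range set per gene) against weeks on the HFHS diet for 16 of the genes, Pemt−/− as circles and Pemt+/+ as squares, 1 array per point. In 14 of the panels every Pemt−/− point lies above every Pemt+/+ point, and the points cross or overlap for Tlr7 and Spi1.

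All 4 genes of Fc receptor signalling were higher in Pemt−/−, with a median log2 difference of 1.36. Fcer1g, the ITAM-bearing gamma chain shared by activating Fc receptors, measured 1944, 1592, 2221 and 2441 in Pemt−/−, against 785, 811, 561 and 719 in Pemt+/+. The genotypes were well apart in each week, at 2.80-fold (1.49 ± 0.16, adjusted p = 0.00128). Tyrobp, the ITAM adaptor DAP12, measured 2300.2, 2026, 3998 and 4071 in Pemt−/−, against 1233, 1229, 691 and 877 in Pemt+/+. In the later weeks the Pemt−/− arrays were higher and the Pemt+/+ arrays lower than in the earlier ones, and the fold over the 4 weeks was 2.98 (1.58 ± 0.28, adjusted p = 0.00759).

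The receptor chains were nearest between the genotypes at week 2. Fcgr1, the high-affinity receptor for IgG, measured 311, 281, 408 and 477 in Pemt−/−, against 206, 223, 139 and 158 in Pemt+/+. The groups did not overlap, and the fold was 1.94 (0.96 ± 0.22, adjusted p = 0.0217). Fcgr3, a low-affinity receptor for IgG that works through the gamma chain, measured 418, 283, 729 and 793 in Pemt−/−, against 309.5, 261, 159 and 145 in Pemt+/+. The Pemt−/− array of week 2 lay below the Pemt+/+ array of week 1, so the groups overlapped, and the 2.36-fold difference was close to the threshold (1.24 ± 0.36, adjusted p = 0.0476). The adjusted p of Fcgr1 was 0.102 without week 3 and 0.0935 without week 4, and that of Fcgr3 was 0.183 and 0.167.

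All 4 subunits of the phagocyte NADPH oxidase among the 33 genes were higher in Pemt−/−, with a median log2 difference of 1.51. The membrane subunits came first in size. Cyba, the p22phox subunit, measured 1228, 1057, 1910.2 and 1991 in Pemt−/−, against 421, 453, 299 and 297 in Pemt+/+. Both genotypes showed a step between the earlier and the later pair of arrays, in opposite directions, and the fold was 4.00 (2.00 ± 0.25, adjusted p = 0.0018). Cybb, the catalytic gp91phox subunit, measured 1490.0, 1014, 1989.7 and 1962 in Pemt−/−, against 515, 540.3, 385 and 434 in Pemt+/+. No arrays overlapped and the fold was 3.28 (1.71 ± 0.22, adjusted p = 0.00198).

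The cytosolic subunits measured here followed. Ncf4, the p40phox subunit, measured 317, 242, 423 and 447 in Pemt−/−, against 175, 188, 116 and 73.2 in Pemt+/+. The Pemt+/+ array of week 4 was the lowest of all, and the fold was 2.48 (1.31 ± 0.30, adjusted p = 0.021). Ncf1, the organizer subunit p47phox, measured 450.2, 443, 595 and 588 in Pemt−/−, against 291, 364, 202 and 179 in Pemt+/+. Its groups were closest at week 2 but did not overlap, with a 2.00-fold difference (1.00 ± 0.23, adjusted p = 0.0207). Leaving out 1 week could end the call of either cytosolic subunit. For Ncf4 the adjusted p reached 0.0524 with week 1 left out, 0.0921 with week 3 left out and 0.0676 with week 4 left out. For Ncf1 it reached 0.0973 with week 3 left out and 0.0832 with week 4 left out. Both also did not pass with eBayes without the trend (adjusted p = 0.0697 for Ncf4 and 0.0694 for Ncf1). Of the other oxidase genes, 2 of 5 tested were higher and 0 lower. These were Rac2, the haematopoietic GTPase of the complex (log2 difference 1.21, adjusted p = 0.0115), and Hvcn1, the voltage-gated proton channel (1.57). The broadly expressed Rac1 and Rap1a differed by −0.04 and 0.02, and Cybc1 by 0.29, without passing the test.

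Pattern recognition and scavenger receptors were higher in 5 of 6 genes, with a median log2 difference of 1.57 over the 6. Clec7a, the beta-glucan receptor dectin-1, measured 2030.5, 1162, 3549.6 and 3658 in Pemt−/−, against 430.5, 559, 348 and 434 in Pemt+/+. The lowest Pemt−/− array, that of week 2, was still above all Pemt+/+ arrays, and at 5.24-fold this was the largest fitted difference of the 33 genes (2.39 ± 0.32, adjusted p = 0.00228). Ly86, or MD-1, the partner of the receptor CD180, measured 1318, 1413, 1974 and 2469 in Pemt−/−, against 684, 643, 371 and 459 in Pemt+/+. It was higher at 3.24-fold without overlap (1.70 ± 0.25, adjusted p = 0.00346).

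Tlr2, the receptor for bacterial lipopeptides, measured 346, 225, 509 and 456 in Pemt−/−, against 109.5, 155, 144 and 102 in Pemt+/+. Its Pemt+/+ arrays showed little pattern over the weeks, and the fold was 2.70 (1.43 ± 0.24, adjusted p = 0.00584). Msr1, the class A scavenger receptor, measured 955, 781, 979 and 1023 in Pemt−/−, against 754, 413, 417 and 366 in Pemt+/+. The Pemt+/+ array of week 1 came close to the lowest Pemt−/− array, and the fold was 1.95 (0.97 ± 0.18, adjusted p = 0.00842). Cd14, the co-receptor for lipopolysaccharide, was 3.88-fold higher (1.96 ± 0.44, adjusted p = 0.0183), and its adjusted p was 0.0809 without week 3 and 0.0573 without week 4.

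Tlr7, an endosomal receptor for single-stranded RNA, was one of the genes that did not pass. It measured 92.0, 10.3, 113 and 105 in Pemt−/−, against 46.3, 75.0, 70.2 and 19.4 in Pemt+/+. The genotypes overlapped, the Pemt−/− array of week 2 was the lowest of the 8, and the log2 difference was 0.34 ± 0.51 (adjusted p = 0.697). Without week 4 the sign turned, to −0.14 (adjusted p = 0.905), and without week 2 the difference was 1.05 (adjusted p = 0.0671).

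Of the other genes of the Toll-like receptor pathway, 3 of 16 tested were higher and 1 lower. The higher genes were Tlr13, a receptor for bacterial ribosomal RNA (1.43, adjusted p = 0.00192), Tlr1, which pairs with Tlr2 (1.44), and Irak3, an inhibitor of the pathway (1.10). Tirap, a membrane adaptor, was lower (−0.55, adjusted p = 0.0234). Tlr4 averaged 128 ± 20.5 in Pemt−/− and 85.5 ± 4.22 in Pemt+/+ and did not pass (0.49, adjusted p = 0.134), nor did Myd88, the common adaptor (0.31, adjusted p = 0.124).

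Both lysosomal enzymes were higher, with a median log2 difference of 1.88. Lyz2, the lysozyme of macrophages, measured 5144, 3978, 9900.1 and 10191 in Pemt−/−, against 1525, 1388, 1072 and 1265 in Pemt+/+. The later Pemt−/− arrays were all above the earlier ones, and the fold over the weeks was 5.13 (2.36 ± 0.27, adjusted p = 0.00135). A part of this signal from the close paralog Lyz1 was not tested. Ctss, the cysteine protease cathepsin S, measured 6328, 5794, 12613 and 13948 in Pemt−/−, against 3733, 4179, 2698 and 3099 in Pemt+/+. The same step was seen in Pemt−/− with lower late arrays in Pemt+/+, and the fold was 2.64 (1.40 ± 0.28, adjusted p = 0.0121, and 0.0524 without week 3).

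All 6 pan-leukocyte membrane genes were higher, with a median log2 difference of 1.86. Cd52, a small GPI-anchored glycoprotein, measured 2197, 1707, 2823 and 3272 in Pemt−/−, against 737, 552, 469 and 582 in Pemt+/+. It stood apart in each week at 4.12-fold, with the smallest adjusted p of the 33 genes (2.04 ± 0.19, adjusted p = 0.000683). Ptprc, the phosphatase CD45 found on all leukocytes, measured 1777, 1283, 1953 and 2181 in Pemt−/−, against 571, 544, 527 and 438 in Pemt+/+. Its arrays varied little within each genotype beside the 3.34-fold difference (1.74 ± 0.17, adjusted p = 0.000775).

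Laptm5, a lysosomal membrane protein of leukocytes, measured 1651, 1962, 3136 and 3620.5 in Pemt−/−, against 682, 682, 434 and 551 in Pemt+/+. It was one of 3 genes whose lowest Pemt−/− array was week 1, and the fold was 4.18 (2.06 ± 0.25, adjusted p = 0.00177). Cd84, an adhesion receptor of the SLAM family, measured 382, 360.5, 647 and 661 in Pemt−/−, against 193, 108, 114 and 231 in Pemt+/+. The groups did not overlap and the fold was 3.00 (1.59 ± 0.22, adjusted p = 0.00262). Cd48, another SLAM family protein, was 3.96-fold higher and Cd53, a tetraspanin, 2.87-fold.

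The actin regulators Coro1a and Lcp1 were both higher, by different sizes. Coro1a, coronin 1A of leukocytes, measured 405, 313, 528 and 550.5 in Pemt−/−, against 106, 108, 114 and 92.1 in Pemt+/+. Its Pemt+/+ arrays were nearly level, and the fold was 3.77 (1.91 ± 0.19, adjusted p = 0.000869). Lcp1, the actin-bundling L-plastin, measured 2036, 1954, 2974 and 2966 in Pemt−/−, against 1953, 1484, 1607 and 1699 in Pemt+/+. At week 1 the genotypes were nearly equal, and the 1.45-fold difference had an adjusted p of 0.0375 (0.53 ± 0.14), which was 0.177 without week 3 and 0.157 without week 4.

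Spi1, which codes for PU.1, measured 122, 39.8, 127 and 213 in Pemt−/−, against 41.2, 30.5, 78.6 and 46.6 in Pemt+/+. The Pemt−/− array was the higher in each week, but that of week 2 lay among the Pemt+/+ values, and the 2.00-fold difference did not pass (1.00 ± 0.30, adjusted p = 0.0557). It passed without week 2 (adjusted p = 0.0257). Of the other myeloid transcription factors, 4 of 10 tested were higher and 0 lower. Irf8, a partner of PU.1 in monocyte development, averaged 470.0 ± 119 in Pemt−/− and 188 ± 31.1 in Pemt+/+ (SD, n = 4 each, log2 difference 1.23, adjusted p = 0.00177). Ikzf1, or Ikaros, differed by 1.69 (adjusted p = 0.00742). Maf (0.61) and Fli1 (0.94) passed as well, while Cebpb (−0.04) and Klf4 (0.47) did not.

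The second question was how the difference ran over the weeks, with 1 array of each genotype per week and so with no test within a week. The median log2 difference of the 33 genes was 1.25 at week 1, 0.89 at week 2, 2.22 at week 3 and 2.19 at week 4, while the median of all genes stayed between 0.01 and 0.03. The intensity in Pemt−/− was at least 2 times that in Pemt+/+ for 20 of the 33 genes at week 1, for 12 at week 2, for 29 at week 3 and for 31 at week 4. The same ratio was reached by 7.58%, 6.21%, 10.9% and 10.6% of all genes at weeks 1, 2, 3 and 4. It was reached in all 4 weeks by 10 of the 33 genes and by 2.13% of all genes. The largest weekly difference fell at week 3 for 17 genes and at week 4 for 16.

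The week 2 array of Pemt−/− was the lowest of its genotype for 29 of the 33 genes, which was true of 34.7% of all genes. The arrays of weeks 3 and 4 were both above those of weeks 1 and 2 in Pemt−/− for 31 of the 33 genes, with Adgre1 and Aif1 as the exceptions, against 25.2% of all genes. In Pemt+/+ the arrays of weeks 3 and 4 were both below those of weeks 1 and 2 for 21 genes, against 17.5% of all genes. Beside this, the summed intensity of the hepatocyte markers in Pemt−/− was 368263 at week 2 and 301958 to 308142 in the other weeks, and their part in the low values of week 2 was not tested.

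As a change per week, 0 of the 33 genes passed in Pemt−/− (0.0386% of all genes rose), 0 in Pemt+/+ (0% of all genes fell) and 0 for the difference between the slopes (0% of all genes were above 0) by limma. At an unadjusted p under 0.05 the slope was above 0 in Pemt−/− for 16 genes (6.46% of all genes), below 0 in Pemt+/+ for 6 (2.73%) and larger in Pemt−/− for 20 (4.27%). The median slope was 0.28 log2 units per week in Pemt−/− and −0.13 in Pemt+/+, against 0.01 and 0.0001 over all genes. The difference between the slopes was above 0 in all 33 genes, with a median of 0.41 against 0.01 over all genes. The 33 genes were read from the same 8 arrays and are not 33 separate observations.

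In Pemt−/− the later arrays lay above the earlier ones for most of the 33 genes. Weeks 3 and 4 were therefore set against weeks 1 and 2 within each genotype, a comparison chosen after the values had been seen. Whether a step describes the values better than a line was not tested. In Pemt−/− 5 of the 33 genes were higher in the later weeks, against 0.278% of all genes, and in Pemt+/+ 0 passed. These were Ctss (log2 change 1.13 ± 0.13, adjusted p = 0.00984), Lyz2 (1.15 ± 0.15, adjusted p = 0.0171), Cd14 (1.72 ± 0.24, adjusted p = 0.0187), Mpeg1 (0.97 ± 0.15, adjusted p = 0.0288) and Tyrobp (0.90 ± 0.15, adjusted p = 0.0361). Cd14 measured 573, 399.9, 1313 and 1975 in Pemt−/−, against 255, 301, 163 and 170.0 in Pemt+/+. It had the largest log2 change of the 33 genes in Pemt−/−, and its Pemt+/+ arrays were lower in the later weeks, at −0.68. Mpeg1 measured 4398, 4041, 7866 and 8737 in Pemt−/−, against 1846, 2399, 1989.6 and 2149 in Pemt+/+. The later Pemt−/− arrays were well above the earlier ones, and the change in Pemt+/+ was −0.03.

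The change of Pemt−/− exceeded that of Pemt+/+ at an adjusted p under 0.05 for 1 gene, Ctss (1.58, adjusted p = 0.0265), against 0.0232% of all genes. Its size was above 0 in all 33 genes, with a median of 1.04 against 0.03 over all genes. The median change was 0.75 in Pemt−/− and −0.45 in Pemt+/+. The number of these calls depended on which week was left out. Without week 1, 5 genes passed in Pemt−/−, without week 2, 1 did, and without week 3 or without week 4, 0 did. The difference of Ctss did not pass when any 1 week was left out.

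**Figure D3:**
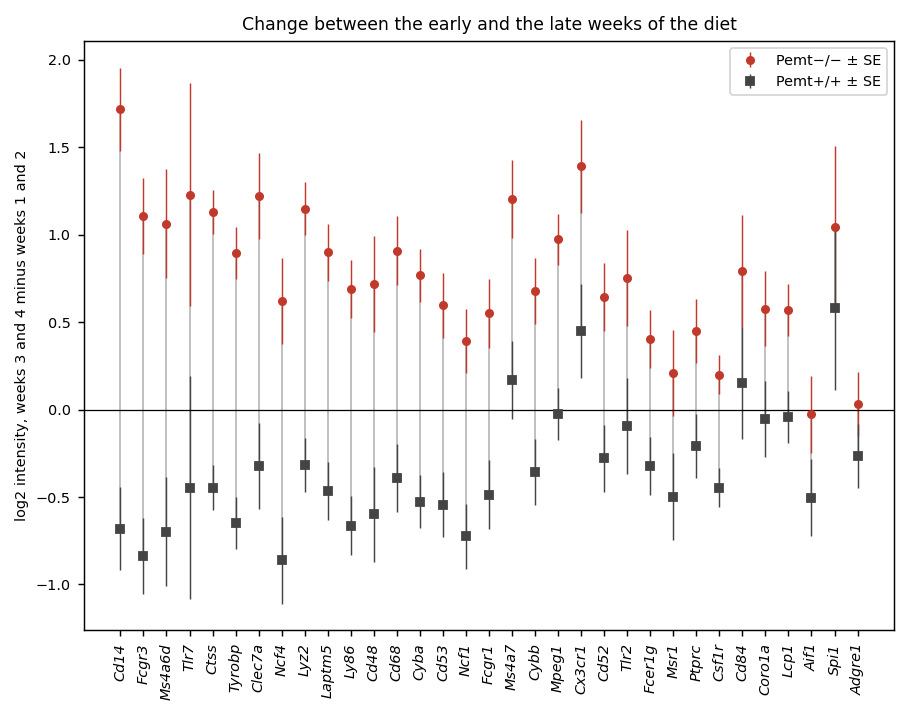
Change in log2 intensity between weeks 1 and 2 and weeks 3 and 4 (late minus early) for each of the 33 genes, Pemt−/− as circles and Pemt+/+ as squares, with bars for the SE and genes ordered by the gap between the genotypes. The Pemt−/− changes lie above 0 except for Aif1 and above the Pemt+/+ change in each gene, with the widest gap for Cd14 and the narrowest for Adgre1.

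Beside the brightest probe sets, 15 of the genes had 26 further probe sets, of which 16 were bright enough to be tested. A total of 9 of these were higher in Pemt−/− and 0 lower. Over the whole array, 4372 of the 27022 probe sets tested were called in either direction, and 63.8% of the called ones were higher. The further probe sets of Csf1r passed at log2 differences of 1.02 and 0.70, and the second tested probe set of Coro1a at 2.10. Probe sets that did not pass included a second one of Fcgr1 (0.33, adjusted p = 0.376), those of Cd53 (−0.22, adjusted p = 0.664) and Cd84 (−0.07, adjusted p = 0.90) and 2 of Laptm5 (0.60, adjusted p = 0.0822, and −0.83, adjusted p = 0.20). A pair of the 4 probe sets of Msr1 did not pass either (0.27, adjusted p = 0.531, and 0.71, adjusted p = 0.259). With the mean of all probe sets of a gene, the log2 difference of Laptm5 was 0.63 in place of 2.06, that of Cd84 0.76 in place of 1.59 and that of Ms4a7 1.44 in place of 2.25, and all of these passed. Cd53 was at 0.65 in place of 1.52 and did not pass (adjusted p = 0.0606).

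Other genes of phagocyte signalling were listed to set the 33 genes in context. In a list of ITAM signalling genes, which also held Fcgr4 and Hcst, 8 of 13 genes tested were higher. Among them were Prkcd, Plcg2 and the kinase Btk (log2 differences of 0.97, 1.00 and 1.19), and 1, Pik3cd, was lower (−0.38, adjusted p = 0.017). Syk, the kinase that docks on phosphorylated ITAMs, averaged 359 ± 102 in Pemt−/− and 132 ± 46.9 in Pemt+/+ (1.36, adjusted p = 0.0162). Of the inhibitory receptors and phosphatases that oppose these signals, 8 of 10 were higher, with Sirpa, the receptor of CD47, at 2.15, Clec4a2 at 1.57 and the phosphatase Inpp5d at 0.88. Fcgr2b, the inhibitory Fc receptor, averaged 1896 ± 517 in Pemt−/− and 1952 ± 266 in Pemt+/+ and did not pass (−0.07, adjusted p = 0.711).

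In a list of the ligands of Csf1r and Cx3cr1 and of receptor chains for other colony-stimulating factors, 4 of 7 genes tested were higher. Csf1, a ligand of Csf1r, averaged 364 ± 89.3 in Pemt−/− and 207 ± 33.1 in Pemt+/+ (0.75, adjusted p = 0.0234), while Il34, its other ligand, averaged 88.0 ± 14.9 in Pemt−/− and 91.3 ± 9.58 in Pemt+/+ and did not pass. Cx3cl1, or fractalkine, was higher at 0.84 and Csf3r, the receptor of G-CSF, at 1.37. Of 20 further leukocyte genes tested, 18 were higher, led by the smallest p values of Fermt3 (1.61), Arhgdib (1.30) and Cd44 (1.85), and Itgb2, the beta chain of the leukocyte integrins, differed by 2.32.

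Markers of single cell types moved beside these genes to different degrees. All 6 monocyte markers tested were higher, with a median log2 difference of 2.02 and a summed intensity of 2477 to 4207 in Pemt−/− against 1097 to 1448 in Pemt+/+, and Ccr2, the receptor that guides monocytes out of the marrow, differed by 2.50. Of the 8 Kupffer cell markers 3 were higher and 1, C6, was lower (−0.87), and Clec4f and Timd4 did not pass (−0.02 and −0.57). Their median weekly difference was 0.54, 0.33, 0.18 and −0.19 at weeks 1, 2, 3 and 4. Neutrophil markers were higher in 3 of 8 tested, namely S100a8, S100a9 and Csf3r, while Mpo, Ngp, Ltf, Elane and Mmp8 did not pass. The summed intensity of the neutrophil markers was 1274 to 1996 in Pemt−/− and 378 to 877 in Pemt+/+, and their median weekly difference was 0.59, 0.42, 1.23 and 1.26 at weeks 1, 2, 3 and 4. The larger late differences went with lower Pemt+/+ values and not with a rise in Pemt−/−. The median slope of these markers was −0.01 log2 units per week in Pemt−/− and −0.39 in Pemt+/+.

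Of the lymphocyte lists, T cell markers were tested for 4 of the 11 measured and 0 passed, and their summed intensity was 620 to 864 in Pemt−/− and 443 to 546 in Pemt+/+. The B cell list had 1 of 6 higher, Cd22, and the natural killer cell list 1 of 5, Klrd1. Dendritic cell markers passed in 0 of 5. Markers of lipid-associated macrophages were higher in 7 of 8 and lower in 1, with a median log2 difference of 2.61. Their summed intensity overlapped between the genotypes, at 20433 to 37215 in Pemt−/− and 13268.5 to 31582 in Pemt+/+. At week 2 this sum was lower in Pemt−/− (20433) than in Pemt+/+ (24778). Stellate cell markers were higher in 8 of 8 (median 1.30), and those of sinusoidal endothelium lower in 4 of 8 (median −0.33). The part of each cell type in the values of the pan-leukocyte genes was not tested.

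**Figure D4:**
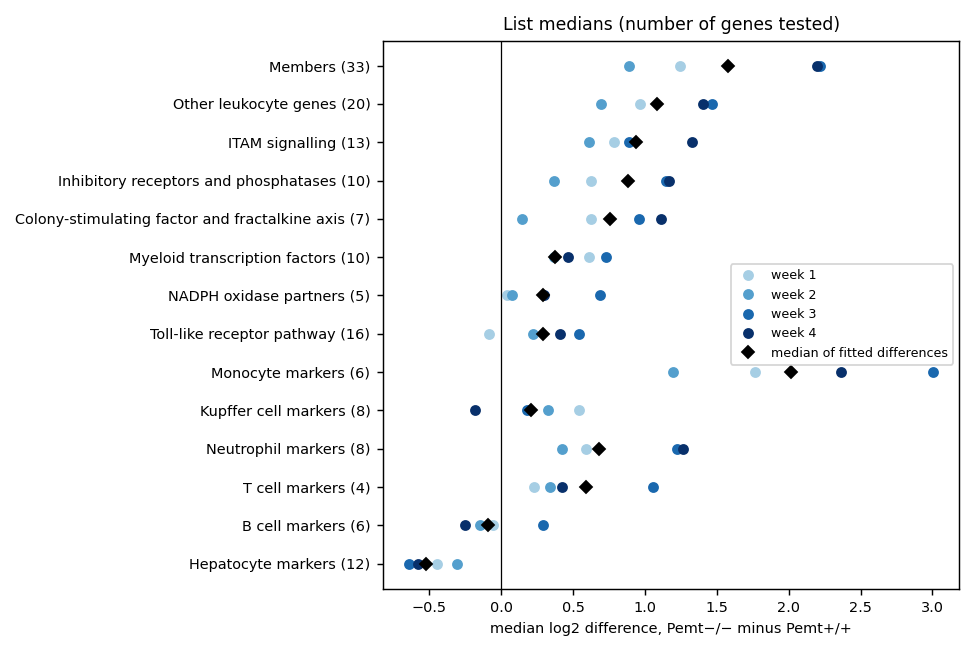
Median log2 difference of Pemt−/− minus Pemt+/+ for the 33 genes and for some of the gene lists set beside them, with the number of genes tested in brackets. Lists not drawn include the markers of lipid-associated macrophages (median 2.61) and of stellate cells (1.30). Circles are the medians of single weeks, darker for later weeks, and diamonds the median of the fitted differences, which is 1.58 for the 33 genes (the row named members), 2.02 for monocyte markers, 0.20 for Kupffer cell markers and −0.52 for hepatocyte markers.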

How the data were processed

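Liver RNA was hybridised to Affymetrix expression arrays, 1 array per genotype and week. The authors deposited the intensity of each probe set on a linear scale, made, per the submitters' processing notes, with Affymetrix Expression Console. How probes were summarised is not given in the sources used here. All 8 arrays had been scaled to a trimmed mean of 500.0 (2% of probe sets left out at each end). Control probe sets (64) were left out. The platform annotation paired 34945 of 45037 probe sets with 1 gene, 932 with several and 9160 with none.

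Intensities were taken as log2(intensity + 16), so folds of dim probe sets are understated. Probe sets with a mean above the 40th percentile (an intensity of 45.5) were kept, 27022 in all. The genotype difference came from limma 3.58.1 under R 4.3.3 (lmFit, eBayes with an intensity trend), with week as a factor, which pairs the arrays of a week. Slopes used week as a number. Tests were two-sided and adjusted by Benjamini-Hochberg over all probe sets kept. For the genotype difference, the p-values measure how the Pemt−/− minus Pemt+/+ difference spread between weeks, including any change of it over the diet. For slopes and for late against early, they measure the spread of the arrays about the fitted values of each genotype. The spread between mice within a week was not measured. The deviations of the arrays of a week from their genotype means correlated at 0.10, −0.02, −0.03 and 0.11 over weeks 1 to 4.

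Values on every array are given for up to 4 genes of each role with the smallest p and for each gene that did not pass. For some of the other lists, up to 3 genes with the smallest p are named, and some genes that moved against their list. For the remaining lists only counts, medians or sums are given, or no values. Further genes were named after their values were seen. The genes and lists were chosen with earlier results of these data known. Precision is limited by the number of arrays. Alternatives were quantile normalization, median centring, other filters, pseudocounts of 1 and 64, eBayes without the trend, the mean of all probe sets of a gene, a model without week, and leaving out each week.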

Additional observations from a re-analysis of the deposited data

Results flagged for a closer look

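For Tlr7, the Pemt−/− array of week 2 stood far below the others of its genotype, at an intensity of 10.3 where the nearest value was 92.0. It was the 1 case among 66 groups of 4 arrays examined. By chance about 1 in 20 such groups would be flagged, so 1 case among 66 is no more than chance gives. For Ctss, the change between weeks 1 and 2 and weeks 3 and 4 differed between the genotypes, by 1.58 log2 units (Pemt−/− minus Pemt+/+, adjusted p = 0.0265, limma), and the Pemt−/− array was the higher in each of the 4 weeks. That comparison was chosen after the values had been seen. The number of genes passing it was 0 with no filter and 0 without the trend, and 3 with the filter at the 60th percentile.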

How the results depend on the processing

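The number of phagocyte genes higher in Pemt−/− (31 of 33) lay between 23 and 32 under the alternatives, and their median log2 difference between 1.33 and 1.77. It was 23 with eBayes without the trend, 23 without week 3 and 24 without week 4. Without the replicate block, that is with week left out of the model, it was 31, and 49 other pathway genes were higher in place of 47. Of 457 results of single genes under alternatives, 419 kept their direction and side of the threshold, 34 lost the call, 3 gained it and 1 turned its sign, Tlr7 without week 4 (−0.14, within a range of −0.14 to 1.05 when 1 week was left out). The genes that lost it without week 3 were Fcgr1, Fcgr3, Ncf1, Ncf4, Cd14, Ctss, Ms4a6d and Lcp1, and the same genes lost it without the trend. The pathway genes that were higher numbered 23 to 47 and those lower (2 in all) 0 to 2 when 1 week was left out, and those lower numbered 1 with quantile normalization, 0 without the trend and 1 with the mean of all probe sets. Genes rising per week in Pemt−/− (0) numbered 0 to 2. The late against early comparison, added after seeing the data, was the least stable: its 5 calls in Pemt−/− became 3 with no filter, 8 with a filter at the 60th percentile, 9 with a pseudocount of 64 and 0 without the trend, and 0 to 5 when 1 week was left out. Its 1 call between the genotypes became 0 with median centring over the probe sets kept, with no filter, without the trend and when any week was left out (0 to 0), 3 with the filter at the 60th percentile, 3 with a pseudocount of 64 and 6 with the mean of all probe sets. Such a fit without 1 week leaves 1 array in an arm, which is assumed to vary like the others. The cause of these changes was not tested.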
